A study of Rattus norvegicus with 9 samples.

Results

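The colony-stimulating factors and their receptors were read from 11 probe sets of 7 genes: the ligands Csf1, Csf2 and Csf3 and the receptor genes Csf1r, Csf2ra, Csf2rb and Csf3r. A probe set was taken where it was annotated with exactly 1 gene symbol and that symbol was one of the 7; the array held 31099 probe sets, and 14218 genes had at least 1 such probe set. Csf1 had 4 probe sets, Csf2 had 2 and the other 5 genes had 1 each. Where a gene had several, the probe set of highest mean signal stood for the gene, and the others are given beside it.

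Csf2 (granulocyte-macrophage colony-stimulating factor, GM-CSF) and Csf3 (granulocyte colony-stimulating factor, G-CSF) are secreted cytokines that are little expressed at rest and are made on inflammatory stimulation by macrophages, lymphocytes and stromal cells. Csf1 (macrophage colony-stimulating factor) is made more constantly, as secreted and membrane-bound forms, and keeps monocytes and macrophages alive through the receptor tyrosine kinase Csf1r. GM-CSF binds the ligand-specific chain Csf2ra, which pairs with the signalling chain Csf2rb that the receptors for interleukin-3 and interleukin-5 also use, and G-CSF binds Csf3r; both receptors signal through Jak2 and STAT proteins.

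Gene expression was measured on 9 rat arrays, 3 from each of 3 groups of CD68+ cells of male Wistar rats, where CD68 is a lysosomal protein of monocytes and macrophages. FBR cells came from the foreign body reaction: tissue that had formed within 3 days on patches of acellular, photo-oxidized bovine pericardium held in steel cages in the peritoneal cavity, digested with collagenase and plasmin before magnetic CD68 selection. In vitro activated cells were CD68+ blood cells kept for 3 days in serum-containing medium on the polymer PTFE coated with fibrinogen, the plasma protein that adheres to implants. Blood cells were CD68+ cells selected in the same way from the mononuclear layer of blood and not cultured. The labels call the 3 samples of a group biological replicates, and how many rats went into each sample is not stated. In vitro activated and FBR cells differed in culture, serum, tissue digestion and implant material as well as in site, and these cannot be told apart. Nor can they in the comparisons with blood cells. FBR cells differed from blood cells in tissue digestion as well as in site and implant. In vitro activated cells differed from blood cells in culture, serum and PTFE as well as in fibrinogen.

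Signals are MAS5 values, the array maker's linear measure of brightness, and each difference is a log2 fold change of signal + 16 from a limma fit of all 9 arrays, called at a Benjamini-Hochberg adjusted p under 0.05 over all probe sets. Median signal was 69.5 to 77.34 on FBR arrays, 86.95 to 110.1 on in vitro activated arrays and 97.26 to 102.8 on blood arrays, after scaling to a common trimmed mean. Arrays of 1 group correlated at 0.931 to 0.976 and arrays of different groups at 0.796 to 0.899. Summed signals of 6 macrophage markers were 77920 to 99651 in FBR cells, 57723 to 96979 in in vitro activated cells, and 27386 to 41658 in blood cells. In the same order, those of 2 B cell markers were 12.6 to 55.7, 172 to 981 and 15715 to 22008, and those of 6 NK cell markers were 37.2 to 140, 101 to 132 and 2014 to 7537. The blood selections thus carried markers of lymphocytes that the FBR selections carried at far lower signals, and blood replicate 2 had the lowest macrophage sum. In such bulk samples, fewer cells of a type and less RNA per cell cannot be told apart. How far these differences in make-up account for any result was not tested.

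FBR cells differed from blood cells by high levels of Csf2, Csf3 and Csf2ra and by a smaller increase in Csf1r. Of the 7 genes, 4 were called higher, 0 lower and 3 did not pass; among all 14218 genes 33.8% were called, 14.6% higher and 19.2% lower. In vitro activated cells against blood cells had 1 gene called higher (Csf2ra), 0 lower and 6 that did not pass, where 27.5% of all genes were called, 15.4% higher and 12.2% lower; 3 of the 7 had an unadjusted p under 0.05. FBR cells against in vitro activated cells had 3 genes called higher (Csf2, Csf3 and Csf3r), 0 lower and 4 that did not pass, where 25.6% of all genes were called, 8.88% higher and 16.7% lower. Each pair of these comparisons shares the arrays of 1 group.

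**Figure D1:**
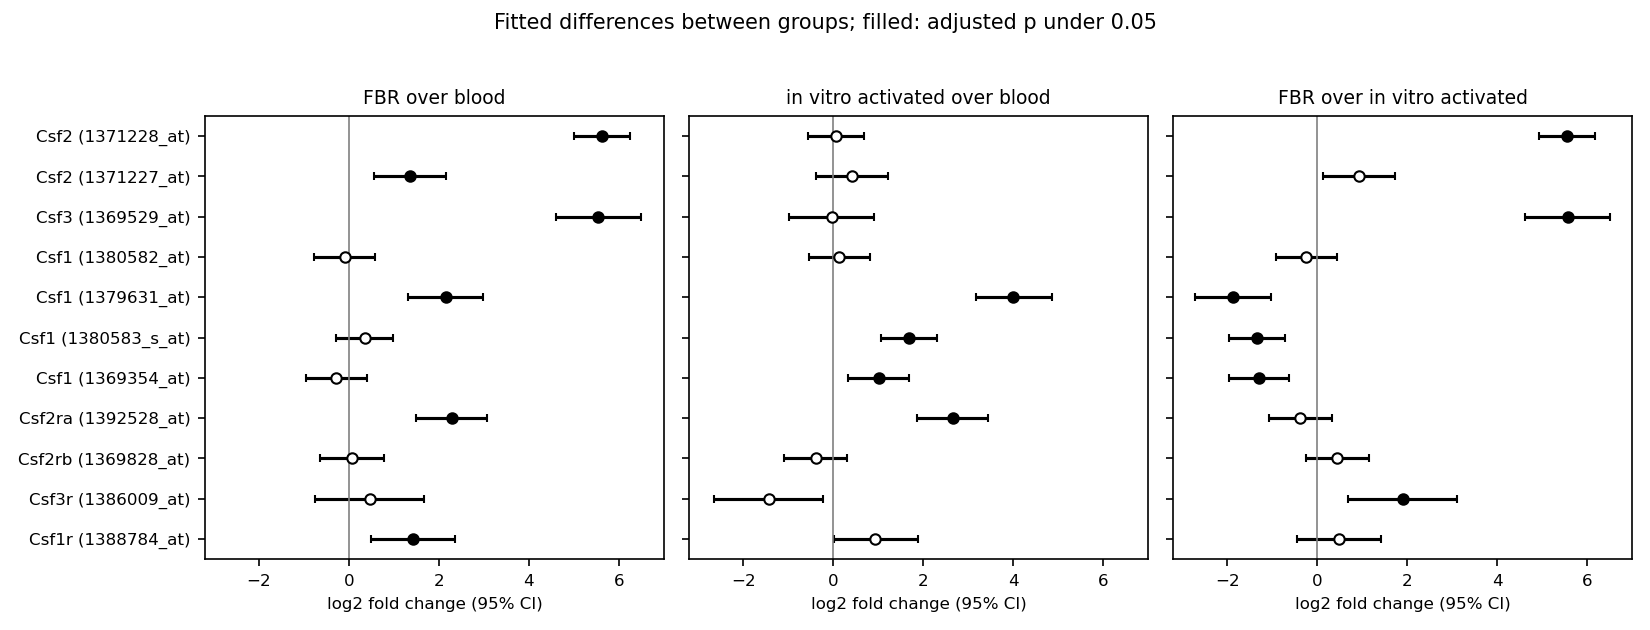
Fitted log2 fold changes (x axis, signal + 16) of the 11 probe sets (y axis) in the 3 comparisons, with 95% confidence intervals from limma; filled points had an adjusted p under 0.05. Csf2 (1371228_at) and Csf3 lay above 5 in both comparisons with FBR cells and near 0 in the comparison of in vitro activated with blood cells, and 3 of the 4 Csf1 probe sets were called in the comparison of in vitro activated with blood cells.

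Csf2, the GM-CSF gene, lies on chromosome 10 of the rat reference GRCr8 (chr10:38887692-38889673, minus strand in the promoter table). Its proximal promoter is shown because this gene was high in FBR cells and near the bottom of the signal range in the others; the sequence comes from RefSeq (GRCr8), covers chr10:38889730-38889923 on the minus strand and reads 5′ to 3′. The capitals mark, in order, matches to the conserved lymphokine element CK-1 (letters ATTCCAC, 136 to 130 bases before the annotated start) and to the Csf2 kappa-B element on the opposite strand (letters GGGAACT, 120 to 114 bases before it). They then mark the core GAGGAA of the myeloid factor PU.1 on the opposite strand (77 to 72 bases before it) and a TATA-like run (63 to 57 bases before it).
Csf2 promoter: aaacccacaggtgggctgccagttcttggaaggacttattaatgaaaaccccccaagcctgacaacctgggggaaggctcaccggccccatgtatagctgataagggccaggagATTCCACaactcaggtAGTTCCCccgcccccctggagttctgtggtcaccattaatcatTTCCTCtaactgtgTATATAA
In the 250 bases before the start of 33469 rat promoters searched in the same way, the CK-1 letters were found in 2.64% and the kappa-B letters in 4.06%, both on either strand. The TATA-like letters TATANAA on the gene strand were found in 7.28%, and GAGGAA on either strand in 23.3%. These motifs were chosen with the sequence known, and a match is a description of letters, not of a bound site.

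On the probe set 1371228_at, Csf2 had signals of 1026, 1586 and 1459 in FBR cells, 9.75, 7.25 and 23.5 in in vitro activated cells, and 10.2, 10.6 and 13.2 in blood cells. All 3 FBR arrays were high, all 6 other arrays lay near the bottom of the signal range, and the FBR arrays overlapped with neither group. Among all genes, the share without overlap was 51.7% in FBR against blood cells, 46.3% in FBR against in vitro activated cells, and 43% in in vitro activated against blood cells. The means were 1357 ± 294, 13.5 ± 8.75 and 11.3 ± 1.61 for FBR, in vitro activated and blood cells (SD, n = 3 each). FBR cells exceeded blood cells by 5.63 on the log2 scale (SE 0.28, 95% interval 5.01 to 6.25), 49.5-fold for signal + 16, with an adjusted p of 1.8e-06 by limma. They exceeded in vitro activated cells by 5.56 (SE 0.28, interval 4.94 to 6.17, adjusted p = 5.1e-06). In vitro activated and blood cells did not differ beyond their spread, with a difference of 0.07 and an interval of -0.55 to 0.69 (adjusted p = 0.88).

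Since both lower groups sat at signals around or under the added 16, the size of the Csf2 difference depended on that number while its call did not. With 1 added the difference between FBR and blood cells was 6.77 (limma adjusted p = 6.9e-05), and with 64 added it was 4.22 (adjusted p = 5.8e-07). The other Csf2 probe set, 1371227_at, was made from the same reference sequence and was far dimmer. It read 57.3, 84.7 and 61 in FBR cells, 36.8, 9.49 and 45 in in vitro activated cells, and 26.1, 8.02 and 17.8 in blood cells. The FBR arrays were again above all others, but by a smaller margin: 1.35 over blood cells (SE 0.36, adjusted p = 0.016 by limma) and 0.93 over in vitro activated cells (interval 0.13 to 1.73, adjusted p = 0.092, which did not pass). Without blood replicate 2 or without FBR replicate 2 the first of these also missed the threshold (adjusted p = 0.061 and 0.064 by limma), and under quantile normalization or median centring the second passed it (1.32, adjusted p = 0.02, and 1.27, adjusted p = 0.024).

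Csf3, the G-CSF gene (chr10:84157485-84159860 of GRCr8), is the main cytokine for neutrophil production and release from the marrow. Its probe set 1369529_at gave 1322, 3716 and 3363 in FBR cells, 53.7, 21 and 44.6 in in vitro activated cells, and 23.7, 54.8 and 43 in blood cells. As for Csf2, the 3 FBR arrays stood above all 6 others, with FBR replicate 1 the lowest of the 3, while in vitro activated and blood arrays were interleaved. The means were 2800 ± 1292, 39.8 ± 16.9 and 40.5 ± 15.7 for FBR, in vitro activated and blood cells (SD, n = 3 each). FBR cells exceeded blood cells by 5.54 (SE 0.43, interval 4.60 to 6.49, 46.7-fold for signal + 16, adjusted p = 1.4e-05 by limma) and in vitro activated cells by 5.57 (SE 0.43, interval 4.63 to 6.52, adjusted p = 4e-05). Between in vitro activated and blood cells the difference was -0.03 with an interval of -0.98 to 0.92 (adjusted p = 0.97).

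Both factors can also be made by stromal cells and Csf2 by lymphocytes, so the markers of those cells are given beside them. Summed signals of 9 fibroblast and mesothelial markers were 1700, 531 and 571 in FBR replicates 1 to 3, 280 to 737 in in vitro activated cells and 224 to 279 in blood cells. The fibroblast genes Col1a1, Col1a2 and Col3a1 read 63.1 to 199, 63.3 to 373 and 126 to 499 in FBR cells, with blood means of 48.1, 13 and 48.9. Pdgfra, Pdgfrb, Lum and Dcn had lower FBR means of 34.8, 23.5, 51.2 and 22.3, and blood means of 12.2, 12.7, 4.52 and 5.73. The mesothelial markers Msln, Krt8 and Krt19 averaged 130, 126 and 21.1 in FBR cells. They averaged 102, 94.9 and 33.6 in in vitro activated cells, and 49.3, 50.8 and 11.2 in blood cells. In FBR cells 4 of 10 markers of fibroblasts and mesothelial cells were called higher than in blood cells, where 14.6% of all genes were. Summed signals of 7 T cell markers were 1035 to 1869 in FBR cells, 535 to 1858 in in vitro activated cells, and 3258 to 5053 in blood cells. The part of these cells in the Csf2 and Csf3 differences was not tested.

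Csf1 (chr2:198065400-198084774 of GRCr8), the macrophage survival factor, gave different pictures on its 4 probe sets. The brightest, 1380582_at, read 782, 625 and 682 in FBR cells, 1007, 666 and 819 in in vitro activated cells, and 1146, 570 and 633 in blood cells. The 3 groups overlapped, and none of the comparisons passed: -0.10 for FBR over blood cells (interval -0.78 to 0.57, limma adjusted p = 0.85), 0.13 for in vitro activated over blood cells (-0.54 to 0.81, adjusted p = 0.8) and -0.24 for FBR over in vitro activated cells (-0.91 to 0.44, adjusted p = 0.62).

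On 1379631_at, by contrast, Csf1 read 384, 192 and 244 in FBR cells, 1364, 1336 and 542 in in vitro activated cells, and 49.7, 42.4 and 48.4 in blood cells. No group overlapped with another: in vitro activated cells were the highest, FBR cells lay between and blood cells were the lowest. The excess of in vitro activated over blood cells was 4.01 (SE 0.38, interval 3.17 to 4.86, 16.1-fold for signal + 16, adjusted p = 7.8e-05 by limma), and that of FBR over blood cells 2.15 (SE 0.38, adjusted p = 0.0017). Relative to in vitro activated cells, FBR cells stood at -1.86 (SE 0.38, adjusted p = 0.0065 by limma).

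The remaining Csf1 probe sets shared the higher level in in vitro activated cells. On 1380583_s_at the signals were 139, 119 and 109 in FBR cells, 364, 268 and 370 in in vitro activated cells, and 61.5, 95.9 and 130 in blood cells. There, in vitro activated cells were 1.68 above blood cells (SE 0.28, adjusted p = 0.0019 by limma) and FBR cells -1.33 relative to in vitro activated cells (SE 0.28, adjusted p = 0.0077), while FBR and blood cells overlapped (0.35, adjusted p = 0.41). On 1369354_at, made from the reference mRNA, the signals were 110, 53.1 and 73.2 in FBR cells, 290, 171 and 183 in in vitro activated cells, and 81.6, 118 and 90.7 in blood cells. Here in vitro activated cells were 1.01 above blood cells (SE 0.30, adjusted p = 0.034 by limma) and FBR cells -1.29 relative to in vitro activated cells (SE 0.30, adjusted p = 0.013), and FBR cells again overlapped with blood cells (-0.28, adjusted p = 0.55). The first of these 2 calls on 1369354_at was lost with 1 added to the signals (limma adjusted p = 0.057), with only the 6 arrays compared (adjusted p = 0.051), and without blood replicate 1 or 3, in vitro activated replicate 1 or FBR replicate 3 (adjusted p = 0.053 to 0.11). The other was lost without FBR replicate 2 (adjusted p = 0.058).

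So 3 of the 4 Csf1 probe sets placed in vitro activated cells above both other groups without overlap, and the brightest did not. Over all probe sets, 19.2% were higher without overlap in in vitro activated cells against blood cells, and 27.4% lower without overlap in FBR cells against in vitro activated cells. The brightest shares its source sequence, an expressed sequence tag, with 1380583_s_at. Averaged over all 4 probe sets, Csf1 in in vitro activated cells was 1.71 above blood cells (adjusted p = 0.00055 by limma) and differed by -1.18 between FBR and in vitro activated cells (adjusted p = 0.005). Which transcripts of Csf1 each probe set reads was not examined here.

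**Figure D2:**
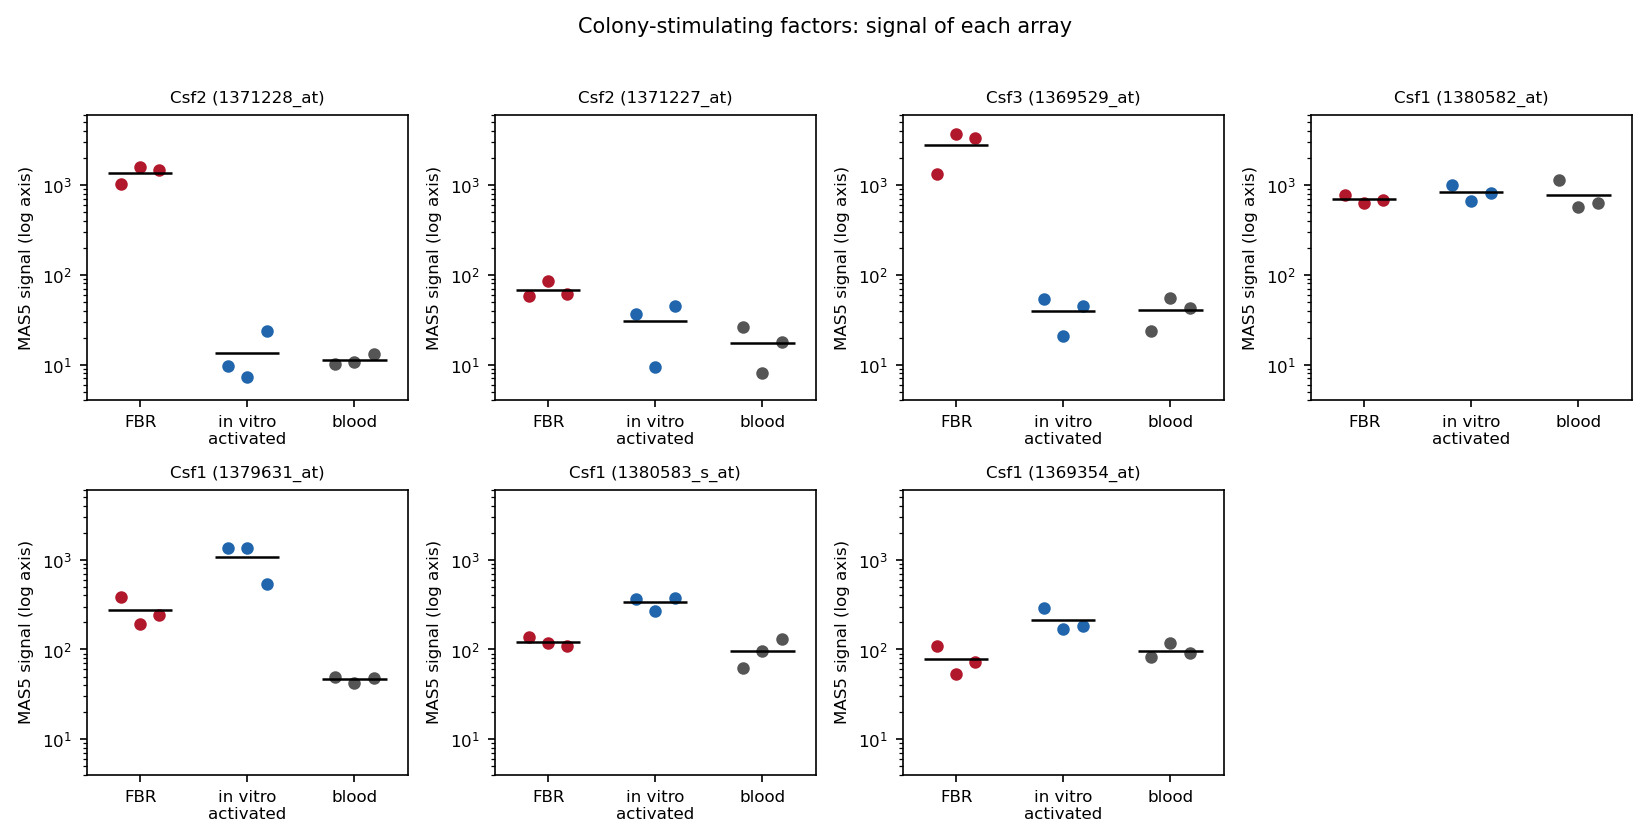
MAS5 signal of each array (y axis, log scale) for the 7 probe sets of the ligands Csf2, Csf3 and Csf1, in FBR, in vitro activated and blood cells (x axis); each point is 1 array and each line a group mean, n = 3 a group. Csf2 (1371228_at) and Csf3 read 1026 or more on all FBR arrays and 54.8 or less on all others, whereas the Csf1 probe sets other than 1380582_at were highest in in vitro activated cells.

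Csf2ra, the ligand-binding chain of the GM-CSF receptor (chr14:113219-118808 of GRCr8), was high in FBR and in vitro activated cells. Its probe set 1392528_at read 5887, 5476 and 6028 in FBR cells, 8288, 7035 and 7306 in in vitro activated cells, and 779 and 1780 in blood replicates 2 and 3. Both blood values lay far below all 6 others, and the 3 in vitro activated arrays lay above the 3 FBR arrays. The signal of blood replicate 1 could not be recovered: the deposited cell can be read either as 2758.47 with its decimal point lost or as 6.9452 turned into a date. The fit used the other 8 arrays.

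The fitted Csf2ra difference was 2.28 between FBR and blood cells (SE 0.35, interval 1.49 to 3.07, adjusted p = 0.0011 by limma) and 2.66 between in vitro activated and blood cells (SE 0.35, interval 1.87 to 3.45, adjusted p = 0.0007). With 2758 taken as the missing blood value the differences were 1.88 (adjusted p = 0.0059 by limma) and 2.25 (adjusted p = 0.0033), and the blood group still did not reach the others. Leaving out blood replicate 2, which leaves a single blood value, gave 1.69 (adjusted p = 0.0044) and 2.07 (adjusted p = 0.0027) by limma. FBR and in vitro activated cells differed by -0.38 (interval -1.08 to 0.33, adjusted p = 0.43), although their arrays did not overlap.

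Csf2rb, the signalling chain that completes the GM-CSF receptor (chr7:111756950-111782089 of GRCr8), was read from 1 dim probe set. On 1369828_at it read 95.7, 94.4 and 130 in FBR cells, 74.7, 76 and 68.7 in in vitro activated cells, and 170, 62.1 and 91.3 in blood cells. The blood arrays spanned the range of both other groups, and the FBR arrays lay above the in vitro activated ones. No comparison passed: FBR over blood cells was 0.07 (interval -0.64 to 0.77, adjusted p = 0.9 by limma), in vitro activated over blood cells -0.38 (-1.09 to 0.32, adjusted p = 0.43) and FBR over in vitro activated cells 0.45 (-0.25 to 1.16, adjusted p = 0.34). The Csf2rb signals lay around the array medians of 69.5 to 110.1, and whether its transcript was detected was not examined. These values therefore cannot show that Csf2rb was unchanged. The signals of the 2 chains come from different probe sets and give no ratio of one chain to the other.

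Csf3r, the G-CSF receptor (chr5:143583126-143604382 of GRCr8), is carried by neutrophils and also by monocytes. Its probe set 1386009_at read 1342, 1226 and 1315 in FBR cells, 130, 502 and 563 in in vitro activated cells, and 1566, 482 and 1077 in blood cells. FBR arrays were tightly grouped and all above the in vitro activated arrays, while the blood arrays spread over both. FBR cells exceeded in vitro activated cells by 1.90 (SE 0.54, interval 0.69 to 3.10, adjusted p = 0.031 by limma). That call was lost with 1 added to the signals (1.96, adjusted p = 0.06), without in vitro activated replicate 1 (1.26, adjusted p = 0.074) and without any 1 of the FBR replicates (adjusted p = 0.077 to 0.083 by limma).

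For Csf3r, in vitro activated cells were -1.43 relative to blood cells (interval -2.64 to -0.23, adjusted p = 0.083), which did not pass, and the difference passed without blood replicate 2 (-1.90, adjusted p = 0.04 by limma). FBR and blood cells differed by 0.46 with an interval of -0.75 to 1.67 (adjusted p = 0.59). Neutrophil markers moved with Csf3r between FBR and in vitro activated cells. The sum over 6 of them was 1434 to 2044 in FBR cells, 66.2 to 227 in in vitro activated cells, and 104 to 1038 in blood cells, and 3 of the 6, S100a8, S100a9 and Lcn2, were called higher in FBR cells. That count is for FBR against in vitro activated cells, where 8.88% of all genes were called higher. S100a9, an abundant calcium-binding protein of neutrophils and monocytes, read 633, 1091 and 1094 in FBR cells, 30.8, 4.81 and 75.6 in in vitro activated cells, and 237, 53.7 and 638 in blood cells. The more strictly neutrophil genes Cxcr2, a chemokine receptor, and Mmp8, neutrophil collagenase, were near the bottom of the signal range in every group, with means of 26.9 and 17.6 in FBR cells, 18.2 and 15.6 in in vitro activated cells, and 22.4 and 16.9 in blood cells. Camp, a granule peptide, averaged 40.8, 12.6 and 31.5 in the same order of groups, and Ngp, Ltf, Mpo and Elane were not analysed here. The part of neutrophils in the Csf3r difference was not tested.

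Csf1r, the receptor for Csf1 and interleukin-34 and a marker of the macrophage lineage (chr18:56834152-56860804 of GRCr8), read 12032, 10289 and 11703 in FBR cells, 7189, 7291 and 10006 in in vitro activated cells, and 7281, 1956 and 5166 in blood cells on 1388784_at. FBR arrays were above all others, and blood cells overlapped with in vitro activated cells at their highest array. FBR cells exceeded blood cells by 1.43 (SE 0.42, interval 0.49 to 2.36, adjusted p = 0.025 by limma). Under quantile normalization this was 1.01 (adjusted p = 0.14), and without 1 of the FBR replicates it lay at an adjusted p of 0.056 to 0.072, so the call was lost in each of these settings while its direction was not. The difference of in vitro activated from blood cells was 0.94 (interval 0.01 to 1.88, adjusted p = 0.14), which passed without blood replicate 1 (1.34, adjusted p = 0.043 by limma). FBR and in vitro activated cells differed by 0.49 (interval -0.45 to 1.42, adjusted p = 0.45).

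**Figure D3:**
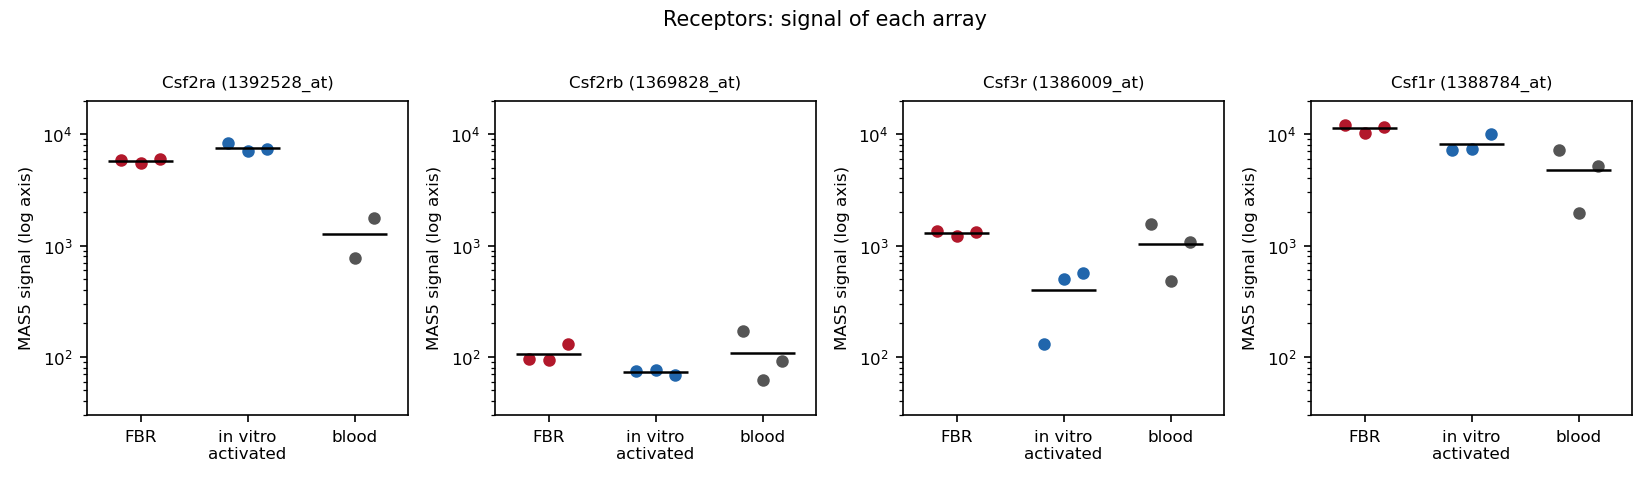
MAS5 signal of each array (y axis, log scale) for the receptor genes Csf2ra, Csf2rb, Csf3r and Csf1r in FBR, in vitro activated and blood cells (x axis); each point is 1 array and each line a group mean, n = 3 a group except Csf2ra in blood cells (n = 2). Csf2ra read 5476 or more in FBR and in vitro activated cells and 1780 or less in blood cells, whereas Csf2rb read 170 or less on all arrays.

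Blood replicate 2 was the lowest of the blood arrays for Csf1r (1956), for Csf3r (482), for Csf2rb (62.1) and of the measured pair for Csf2ra (779), and of the 8 macrophage markers it was also lowest for Cd68 (3524, against 11741 and 8450), Aif1 (642, against 5159 and 3696), Cd14, Itgam and Adgre1. It was not lowest for the other macrophage markers, with 21482 for Lyz2 (against 19460 and 23172), 48.3 for Cd163 (against 1.16 and 125) and 323 for Mrc1 (against 301 and 293). Its NK cell marker sum, 7537, was the highest of the blood arrays, against 2014 and 3725. In FBR cells Cd68, the protein used for selection, read 20075, 24802 and 20470, and in in vitro activated cells 28965, 23892 and 38245. The part of cell make-up in the receptor differences was not tested. Leaving out blood replicate 2 would not test that part. B cell markers summed to 15715 to 22008 across the blood arrays and 12.6 to 55.7 across the FBR arrays, and Csf2ra would keep only 1 blood value.

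**Figure D4:**
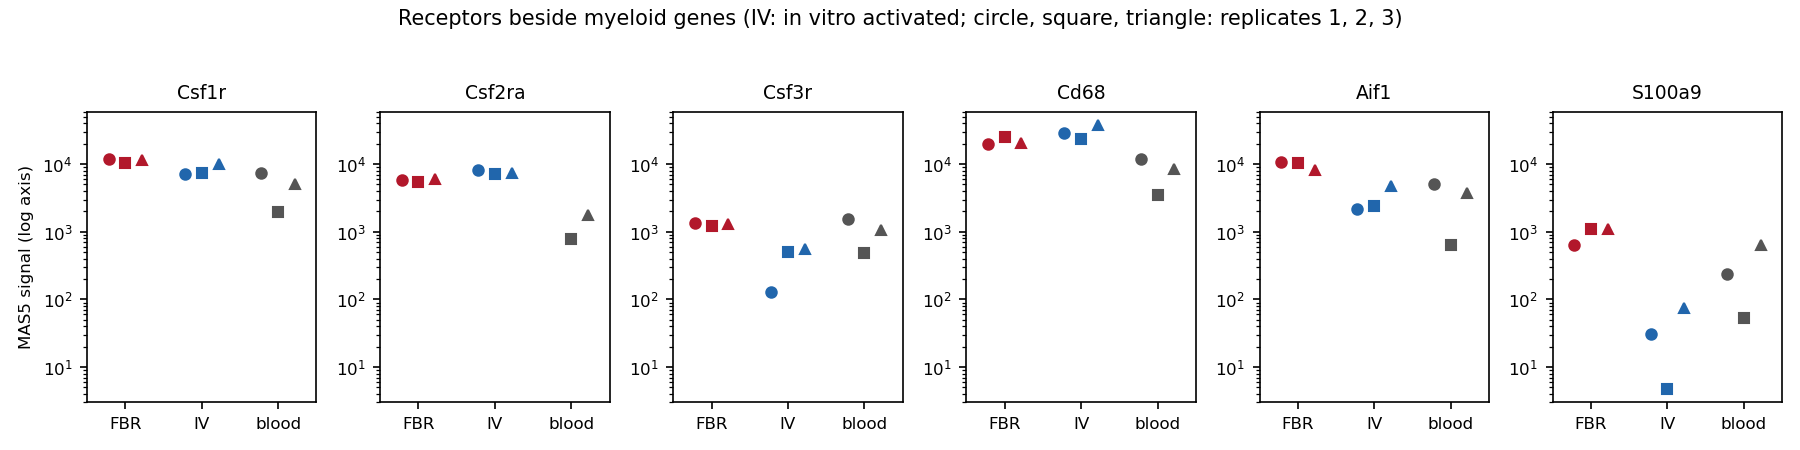
MAS5 signal of each array (y axis, log scale) for 3 receptor genes beside the monocyte and macrophage genes Cd68 and Aif1 and the myeloid gene S100a9, in FBR, in vitro activated (IV) and blood cells (x axis); circles, squares and triangles are replicates 1, 2 and 3. Blood replicate 2 (square) had the lowest blood signal in each panel, and Csf2ra has no value for blood replicate 1.

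Short windows of the receptor promoters are shown since PU.1, an ETS family factor, is known to act on myeloid receptor genes; RefSeq (GRCr8) promoters were given for Csf3r, Csf2ra and Csf1r as for Csf2, 4 of the 7 members. Each window reads 5′ to 3′ on the strand of the gene, and the capitals mark the PU.1 core GAGGAA, or its complement where the core is on the opposite strand. They lie at chr5:143583048-143583077 (plus strand) for Csf3r, chr14:118141-118170 (minus strand) for Csf2ra and chr18:56834272-56834301 (plus strand) for Csf1r.
Csf3r: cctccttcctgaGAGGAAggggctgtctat
Csf2ra: caacccaaagatGAGGAAgtgggagcaagg
Csf1r: gacaagaacgtgTTCCTCtgttcccatccc
The cores start 160 bases before the annotated start in Csf3r, 41 bases before it in Csf2ra and 95 bases before it in Csf1r, which had a further one at 229 bases. For Csf3r, Csf2ra and Csf1r the annotated starts lie inside the gene span. The windows shown for Csf2ra and Csf1r lie inside the gene span too, as does the Csf2ra NF-kB match named below. The Csf3r window lies before its gene span. A core was present in all 4 member promoters given and in 23.3% of all promoters. A general NF-kB consensus, found in 6.33% of promoters, was present in Csf2ra at 62 to 53 bases before the start, and the AP-1 letters TGANTCA, found in 6.34%, were in none of these 4 promoters. The Csf2 kappa-B letters were also found in Csf3r (23 to 17 bases before the start) and, on the opposite strand, in Csf1r (156 to 150 bases before it).

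Of 13 related blood cell cytokines and receptors, 10 were analysed here, and in FBR against blood cells 1 was called higher, 1 lower and 8 did not pass, with a median log2 difference of 0.13. Over all genes 33.8% were called in that comparison, 14.6% higher and 19.2% lower, with a median of -0.09. The gene called higher was Il3ra, the interleukin-3 receptor chain that also pairs with Csf2rb: 1144, 1152 and 844 in FBR cells, 465, 345 and 509 in in vitro activated cells, and 436, 105 and 331 in blood cells. FBR arrays exceeded all others, with a difference of 1.98 from blood cells (adjusted p = 0.0061 by limma) and of 1.22 from in vitro activated cells (adjusted p = 0.071). Il3 itself was called lower in FBR than in blood cells (-1.30, adjusted p = 0.044) at means of 5.94 and 38.1, near the bottom of the signal range, and lost that call under most alternatives. Il34, the other ligand of Csf1r, had means of 28.9 (FBR), 45.9 (in vitro activated) and 29.5 (blood cells), and no comparison passed. By limma, 0 of the 10 were called in in vitro activated against blood cells and 0 in FBR against in vitro activated cells, where 27.5% and 25.6% of all genes were called.

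Among 22 genes of the JAK-STAT pathway used by cytokine receptors, 20 were analysed here. In FBR against blood cells 7 were called higher, 3 lower and 10 did not pass, with a median of 0.05. Over all genes 14.6% were called higher and 19.2% lower, with a median of -0.09. The 4 largest of those called higher were Bcl2l1 (3.19), which encodes the survival protein Bcl-xL, Cish (2.40) and Socs3 (2.23), which restrain cytokine receptor signalling, and the kinase Pim1 (2.23), with limma adjusted p of 0.00019, 0.00013, 0.0028 and 0.0008 in that order. The receptor-bound kinase Jak2 was 1.21 higher (adjusted p = 0.0055), Stat5b 0.97 higher (adjusted p = 0.041) and the adaptor Shc1 0.77 higher (adjusted p = 0.036). Stat5a (-0.58), Jak1 (-0.56), Tyk2 (-0.64) and Lyn (-0.59) ran the other way without passing. Stat3 (0.34) and Jak3 (0.29) did not pass either. Of the other feedback and survival genes in the list, Socs1 (-0.54), Socs2 (-0.94) and Mcl1 (0.51) did not pass. The 3 called lower were the phosphatases Ptpn6 (-1.33, adjusted p = 0.003) and Ptpn11 (-1.18, adjusted p = 0.017) and the kinase Pim2 (-0.98, adjusted p = 0.024).

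Against blood cells, in vitro activated cells had 3 of these 20 genes called higher and 6 lower, with a median of -0.26 against 0.13 over all genes. The shares among all genes were 15.4% higher and 12.2% lower. Higher were Bcl2l1 (2.60, limma adjusted p = 0.00092), Shc1 (1.61, adjusted p = 0.0011) and Cish (0.86, adjusted p = 0.041, lost under most alternatives). The lower ones included Jak3 (-2.06, adjusted p = 0.0054), Socs2 (-1.55, adjusted p = 0.016) and Mcl1 (-1.49, adjusted p = 0.0016), a survival gene. Socs3 and Pim1 did not pass (-1.01, adjusted p = 0.12, and -0.47, adjusted p = 0.36).

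The direct comparison of FBR with in vitro activated cells called 6 of the 20 higher and 2 lower, with a median of 0.30 against -0.23 over all genes. It called 8.88% of all genes higher and 16.7% lower. Socs3 read 410, 428 and 407 in FBR cells, 4.67, 51.4 and 52.8 in in vitro activated cells, and 60.5, 99.2 and 72.7 in blood cells, with FBR cells 3.23 above in vitro activated cells (adjusted p = 0.0007 by limma). Pim1 read 340, 735 and 614 in FBR cells, 62.9, 49.8 and 101 in in vitro activated cells, and 95.2, 80.9 and 134 in blood cells, a difference of 2.71 (adjusted p = 0.00059). In both genes every FBR array stood above all 6 others. Jak3 (2.35, adjusted p = 0.0033), Mcl1 (2.00, adjusted p = 0.00047), Cish (1.54, adjusted p = 0.0031) and Jak2 (1.36, adjusted p = 0.005) were the others called higher, and Ptpn11 (-1.50, adjusted p = 0.008) and Shc1 (-0.84, adjusted p = 0.032) were called lower.

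**Figure D5:**
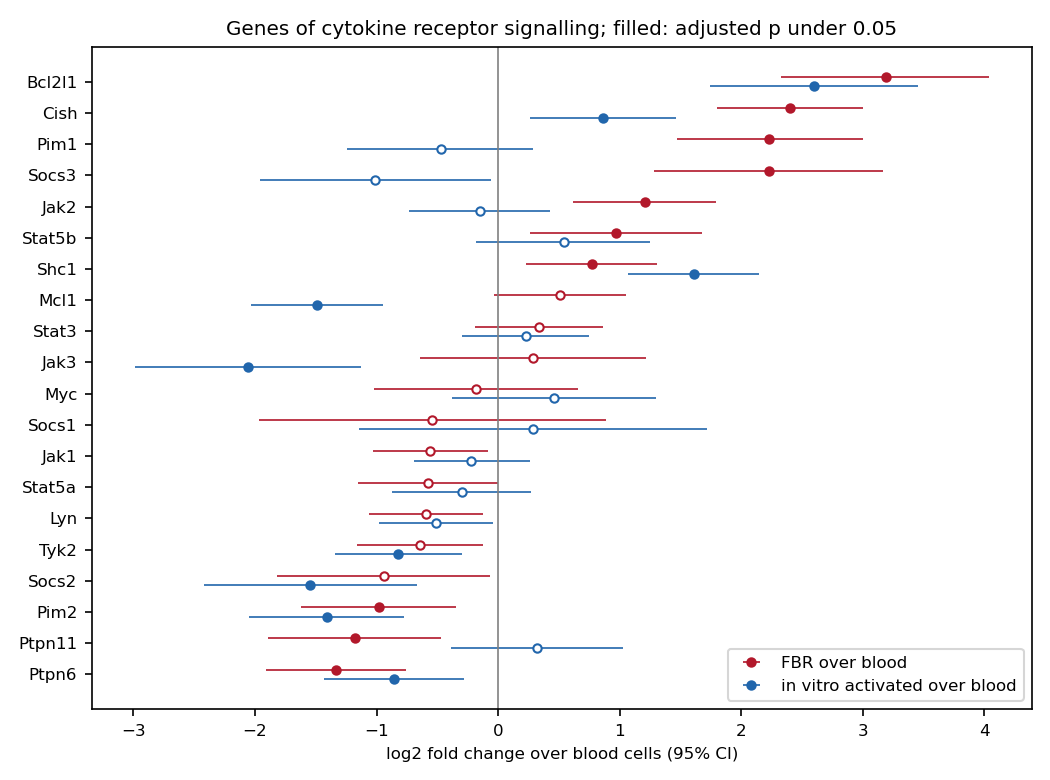
Log2 fold changes over blood cells (x axis, signal + 16, with 95% confidence intervals from limma) of the 20 analysed JAK-STAT pathway genes (y axis) in FBR and in vitro activated cells; filled points had an adjusted p under 0.05. Pim1, Socs3, Jak2 and Stat5b have filled points above 0 for FBR cells and open points for in vitro activated cells, and Bcl2l1, Cish and Shc1 have filled points above 0 for both.

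Genes known to respond to GM-CSF in myeloid cells differed in both directions. Of 11 listed, 10 were analysed here, and FBR against blood cells had 4 called higher, 2 lower and 4 that did not pass, with a median of 0.24, where 14.6% of all genes were called higher and 19.2% lower (median -0.09). Beside Cish and Pim1, the higher ones were Bhlhe40 (2.17, adjusted p = 0.00027 by limma), a transcription factor of cytokine-driven cells, and Ccl22 (1.43, adjusted p = 0.012), a chemokine for T cells; Dpp4 (-2.28, adjusted p = 0.0012) and Cd1d1 (-0.85, adjusted p = 0.035) were lower. Bhlhe40 read 3625, 2282 and 3008 in FBR cells, 766, 960 and 930 in in vitro activated cells, and 851, 508 and 599 in blood cells, so that FBR arrays stood above all others. In vitro activated against blood cells had 4 called higher and 3 lower, led by Ccl22 (3.22, adjusted p = 0.00019), Pparg (2.95, adjusted p = 0.002) and Itgax (2.24, adjusted p = 0.0039) among the higher, and Dpp4 (-2.89, adjusted p = 0.00045), Ccl17 (-2.81, adjusted p = 0.01) and Socs2 among the lower. That comparison called 15.4% of all genes higher and 12.2% lower.

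Pparg, a nuclear receptor that GM-CSF induces in alveolar macrophages of the mouse, read 157, 96.4 and 72.4 in FBR cells, 773, 1424 and 2660 in in vitro activated cells, and 324, 103 and 145 in blood cells. It was high in in vitro activated cells, where Csf2 was at the blood level, and the part of GM-CSF in this was not tested. FBR cells differed from in vitro activated cells by -3.60 (adjusted p = 0.00097 by limma). That comparison called 4 of the 10 higher (Ccl17 at 2.84, Pim1, Bhlhe40 at 1.71 and Cish) and 4 lower (Pparg, Ccl22 and Itgax, both at -1.80, and Cd1d1 at -1.15), and 2 did not pass. Of all genes, 8.88% were called higher there and 16.7% lower. The Ccl17 difference (adjusted p = 0.011) used 2 in vitro activated arrays, since 1 value could not be recovered.

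Of 19 genes that act below or upstream of Csf1r, 17 were analysed here, and FBR against blood cells had 5 called higher, 2 lower and 10 that did not pass (median 0.26), where 33.8% of all genes were called, 14.6% higher and 19.2% lower (median -0.09). Egr2, a transcription factor induced by Csf1, read 4370, 6708 and 7749 in FBR cells, 17564, 17078 and 11280 in in vitro activated cells, and 283, 397 and 473 in blood cells. It was high in FBR and in vitro activated cells and highest in the in vitro activated ones without overlap. The differences were 3.96 (adjusted p = 1.6e-05 by limma) for FBR over blood cells, 5.26 (adjusted p = 1.4e-05) for in vitro activated over blood cells and -1.30 (adjusted p = 0.015) for FBR over in vitro activated cells. Among the Csf1 probe sets, only 1379631_at had the same order of groups without overlap. On 1380582_at all groups overlapped, and on 1380583_s_at and 1369354_at FBR cells overlapped with blood cells. A part of Csf1 in the Egr2 differences was not tested. Tyrobp (2.78, adjusted p = 0.011, with 2 blood arrays), an adaptor of myeloid receptors, Cebpa (1.51, adjusted p = 0.021), Akt1 (1.04, adjusted p = 0.028) and Cblb (0.86, adjusted p = 0.025, with 2 FBR arrays) were also called higher in FBR than in blood cells.

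Pik3cd, a lipid kinase of leukocytes, was called lower than in blood cells both in FBR (-2.37, limma adjusted p = 0.00047) and in vitro activated cells (-1.79, adjusted p = 0.0034). So was the phospholipase Plcg2 (-1.66, adjusted p = 0.0026, and -1.40, adjusted p = 0.0091). In vitro activated against blood cells had 3 of the 17 called higher, Egr2, Cebpa (1.70, adjusted p = 0.0097) and Akt1 (1.11, adjusted p = 0.026), and 4 lower, among them Cblb (-1.19, adjusted p = 0.0042) and Gab2 (-1.12, adjusted p = 0.021). The shares among all genes were 15.4% higher and 12.2% lower. FBR against in vitro activated cells had 2 called higher, the ubiquitin ligase Cblb (2.05, adjusted p = 0.00062) and the adaptor Gab2 (1.77, adjusted p = 0.0025), and 1 lower, Egr2. Of all genes, 8.88% were called higher there and 16.7% lower.

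The mRNAs of Csf2 and Csf3 are known to carry AU-rich elements that shorten their life, and 11 genes that regulate such mRNAs were all analysed. In FBR against blood cells 2 were called higher, 3 lower and 6 did not pass (median -0.45), where 33.8% of all genes were called, 14.6% higher and 19.2% lower (median -0.09). The 2 were Zc3h12a (3.68, adjusted p = 7.2e-06 by limma), the endonuclease regnase-1, and Zfp36 (2.41, adjusted p = 0.0068), the decay factor tristetraprolin; both are known to limit cytokine mRNAs. Zc3h12a read 3114, 2870 and 2805 in FBR cells, 132, 137 and 145 in in vitro activated cells, and 273, 157 and 227 in blood cells. Zfp36 read 21285, 28948 and 22237 in FBR cells, 510, 703 and 1755 in in vitro activated cells, and 6169, 1952 and 7437 in blood cells. Both were high on the same 3 arrays as Csf2 and Csf3, and Zfp36 was lowest in in vitro activated cells (-2.36 relative to blood cells, adjusted p = 0.01).

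FBR cells exceeded in vitro activated cells by 4.26 for Zc3h12a (adjusted p = 9.1e-06 by limma), 4.77 for Zfp36 (adjusted p = 0.00033) and 1.03 for Zfp36l1 (adjusted p = 0.014), the 3 of 11 called higher in that comparison. The 1 called lower was the RNA-binding protein gene Tia1, which read 102, 79 and 81.8 in FBR cells, 513, 450 and 528 in in vitro activated cells, and 1107, 2644 and 841 in blood cells (-2.31, adjusted p = 0.0021). Of all genes, 8.88% were called higher and 16.7% lower in FBR against in vitro activated cells. Among the 11, Tia1 also had the largest called fall of FBR relative to blood cells (-3.73, adjusted p = 6.8e-05), followed by Rc3h2 (-1.19, adjusted p = 0.0075) and Zfp36l2 (-1.07, adjusted p = 0.019). Between in vitro activated and blood cells limma called 0 of the 11 higher and 5 lower (median -0.76). It called 15.4% of all genes higher there and 12.2% lower (median 0.13).

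Csf1 and Csf1r are both released from the cell surface by the metalloprotease Adam17, whose maturation needs the inactive rhomboids Rhbdf1 and Rhbdf2 and the protease Furin. Of 6 genes of this step, FBR against blood cells had 4 called higher, 1 lower and 1 that did not pass (median 1.22), where 14.6% of all genes were called higher and 19.2% lower (median -0.09). Rhbdf1 (2.13, adjusted p = 0.00036), Rhbdf2 (1.47, adjusted p = 0.00069), Adam17 (1.40, adjusted p = 0.0064) and Furin (1.04, adjusted p = 0.012) were higher and Timp3, an inhibitor of Adam17, lower (-1.36, adjusted p = 0.011) by limma. Rhbdf2 read 2275, 2111 and 2315 in FBR cells, 532, 543 and 454 in in vitro activated cells, and 927, 699 and 773 in blood cells, with FBR arrays above all others. Adam17 read 7382, 6404 and 7383 in FBR cells, 8967, 10351 and 9287 in in vitro activated cells, and 3481, 1588 and 3401 in blood cells, and was the 1 gene of 6 called between the second pair of groups (in vitro activated over blood cells 1.83, adjusted p = 0.002). That pair had 15.4% of all genes called higher and 12.2% lower. Between FBR and in vitro activated cells Rhbdf2 (2.10, adjusted p = 0.00021) and Rhbdf1 (1.47, adjusted p = 0.0051) were higher and Timp3 lower (-1.40, adjusted p = 0.015). Of all genes, 8.88% were called higher there and 16.7% lower.

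The members were compared with 8862 genes that had a value on every array and a mean signal of at least 100 in some group. The genes most like each member over the 9 arrays were found by Pearson correlation of log2(signal + 16). They are given as a description over arrays that share 3 groups. For Csf2 they were Crispld2 (0.993), Il10 (0.992), an anti-inflammatory cytokine, and Ereg (0.991), an epidermal growth factor receptor ligand; for Csf3 they were Crispld2 (0.996), Adam8 (0.993) and Duoxa1 (0.992). Il10 had mean signals of 1474 (FBR), 16.3 (in vitro activated) and 18.8 (blood cells), and Ereg had 11340, 56.3 and 52.6 in the same order. Crispld2, Il10, Ereg and Duoxa1 reached the minimum of 100 in FBR cells only. Their high correlations with Csf2 and Csf3 are therefore no further evidence on these genes. Csf2ra was most like Xxylt1 (0.997), Cd63 (0.994), a lysosomal tetraspanin, and Tspan31 (0.994) over its 8 arrays, Csf1r most like Xylb (0.979), Arsa (0.977) and Rab8b (0.974), and Csf3r most like Pon3 (0.973), Rgs2 (0.960) and Mgmt (0.957). Csf1 and Csf2rb, which passed in no comparison on the probe sets that stood for them, had their nearest genes at lower values, St7l (0.869), Ssh1 (0.850) and Tbc1d13 (0.832) for Csf1, and Zfp335 (0.880), Fam167b (0.870) and Pak1 (0.866) for Csf2rb.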

How the data were processed

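The authors deposited MAS5 signals, which summarise the scanned probe intensity, for 9 arrays (Affymetrix Rat Genome 230 2.0), 1 table for the series, scaled by them to a common trimmed mean (498.86 to 501.54). They state a double-round amplification; no software version is given in the sources used here. Deposited tables of their own comparisons hold RMA log2 fold changes and adjusted p values and were not used.

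The deposited signals had been altered by a spreadsheet. Of 279891 cells, 83.4% were kept, 15.4% were whole numbers of 6 or 7 digits that had lost the decimal point and were divided by 1000, 0.0657% were date serials turned back, and 1.04% could be read in more than 1 way and were left missing.

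Probe sets were named from the platform annotation given with the data (20832 with 1 symbol, 436 with several, 9831 with none). The pseudocount was 16, with no filter on low signals. limma 3.58.1 (R 4.3.3; Python 3.11.15 for tables) fitted 1 mean per group over all 31099 probe sets, with 6 residual degrees of freedom and Benjamini-Hochberg adjustment. The steps were tested on simulated data. Arrays carry no counts, so their number, 3 a group, limits the precision.

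The members, lists and markers were chosen with earlier results of these data known. Each list names up to 4 called genes with the largest change per comparison and any called gene of the opposite direction; further members with their values were added after the values were seen. Replicate numbers did not pair arrays (correlations of deviations -0.065 to 0.07). Alternatives were other pseudocounts (1 and 64), a filter, quantile normalization, median centring, 6 arrays only, other eBayes options, a replicate block, each array left out and the mean of a gene's probe sets. Reading every whole number of 6 or 7 digits as a signal was added after the data were seen.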

Additional observations from a re-analysis of the deposited data

How the results depend on the processing

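Of 7 genes, 4, 1 and 3 were called in FBR over blood, in vitro activated over blood and FBR over in vitro activated cells. At an adjusted p under 0.001 the first count was 2 (all probe sets: 2781, 1583 and 923 called by limma, against 9621, 7722 and 6992 at 0.05). The second was 2 with the filter on low signals, with the eBayes trend and robust options (Csf3r added in both) and with the mean of all probe sets (Csf1 added). Leaving out 1 array gave 3 to 4, 1 to 2 and 2 to 3; the second was 2 without blood replicate 1 and without blood replicate 2. With the replicate number as a block the counts were 4, 1 and 2 of 7, and 9184, 7217 and 6412 of all probe sets; the call lost was Csf3r, FBR over in vitro activated cells.

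Results that had passed kept their direction in 305 of 305 values under these alternatives and their call in 276, and 29 values were weaker. Where no value was missing, some alternatives left the fitted difference unchanged, so they could not test direction. These were the stricter threshold, the filter, the other eBayes options and the replicate block. The fit of only the arrays compared and leaving out an array of the group not compared were others. Differences that had not passed changed sign in 17 values. For Csf1 on 1380582_at, FBR over blood cells was 0.15 with quantile normalization, 0.26 with median centring, 0.53 for the mean of probe sets and -0.29 to 0.20 with 1 array left out; in vitro activated over blood cells was -0.06 to 0.44 with 1 array left out (-0.01 without in vitro activated replicate 1); and FBR over in vitro activated cells was 0.11 with median centring. Csf1 on 1369354_at, FBR over blood cells, was 0.07 with quantile normalization and 0.08 with median centring. Csf2 on 1371228_at, in vitro activated over blood cells, was -0.00 with quantile normalization and -0.16 to 0.22 with 1 array left out. Csf2rb, FBR over blood cells, was -0.22 to 0.41 (-0.06 without FBR replicate 3), Csf3, in vitro activated over blood cells, -0.26 to 0.24 (0.15 and 0.02 without blood replicates 2 and 3), and Csf3r, FBR over blood cells, -0.01 to 0.83. Of 360 counts of called genes per list, 39 moved by over 1.5 times. Of 1275 differences of the list genes named, 109 were weaker and 0 reversed, and the same alternatives could not test direction there either. The cause of the changes was not tested.

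Quantile normalization and median centring moved the median of all probe sets by 0.17 and 0.37 for FBR over blood cells and by 0.19 and 0.34 for FBR over in vitro activated cells. The FBR over blood calls split 3394 higher to 6227 lower as deposited, 4249 to 4678 with quantile normalization and 5344 to 4047 with centring; FBR over in vitro activated calls split 2429 to 4563, 2973 to 3182 and 3864 to 2344. Low signals limit Csf2, Csf3, Il3 and the neutrophil genes in the groups where they sat near the added 16. Among the list genes, they also limit Rhbdf1 and Ccl22 in blood cells (means 12.8 and 23.5) and Timp3 and Dpp4 in FBR cells (21.5 and 33.1). In in vitro activated cells the same holds for Gab2 (14.9), Socs2 (12.3), Ccl17 (9.14), Dpp4 (18.1), Rhbdf1 (29.1) and Socs3 (36.3, with replicate 1 at 4.67).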
